A study of Leucoraja erinaceus with 6 samples.

Results

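The genes described here encode enzymes and regulators of cholesterol, sphingolipid and fatty acid synthesis, measured by bulk RNA-seq in dorsal root ganglia (DRG) and spinal cord of little skate (Leucoraja erinacea) embryos. A row of the count table belongs to the set when its name begins with, or equals, one of a fixed series of symbols such as hmgcs, sqle, sptlc, cers, ugt8, elovl or fasn. The rule reads symbols only, but the set was chosen with earlier results of these data known. The rule found 44 of 22087 named rows, namely 13 enzymes of cholesterol synthesis, 4 genes of sterol sensing, 19 sphingolipid enzymes and 8 fatty acid genes. Of the 44, 42 had enough counts to be tested. The other two were smpdl3b, with 0 counts in every DRG library and at most 1 count in a spinal cord library, and elovl7a, with 0 to 6 counts in DRG and 2 to 22 in spinal cord. No row carries the symbol of pmvk, mvd, cyp51, tm7sf2, msmo1, ebp, srebf2, ldlr, sptlc2, cers2, fads1 or scd, so these steps were not analysed here.

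DRG, the ganglia that hold the cell bodies of sensory neurons and their glia beside the cord, were compared with the spinal cord itself. Both tissues came from untreated wild-type embryos at stage 32, and the labels describe both as a mixture of neurons and glia. Each tissue had 3 libraries, and each library pooled tissue of 3 to 4 embryos, so that errors and p-values reflect differences between pools. Replicates 1, 2 and 3 of both tissues carry the pool numbers 815, 816 and 818.

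Cholesterol is built from acetyl-CoA through mevalonate, farnesyl diphosphate, squalene and lanosterol, and the SREBP transcription factors, which SCAP carries and INSIG proteins retain in the endoplasmic reticulum, set the level of many of these enzymes in mammals. Sphingolipids start from serine and palmitoyl-CoA, pass through ceramide, and branch there into sphingomyelin, glucosylceramide, or galactosylceramide and its sulfated form, sulfatide. Nervous tissue makes much of its own cholesterol, and myelin, the lipid-rich sheath around axons, is rich in cholesterol, galactosylceramide, sulfatide and very long chain fatty acids. Roles given below are those known from mammals, and each gene was identified by its symbol only.

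Library totals in named genes were 24342810 to 28782887 counts. The 13 protein-coding rows of the mitochondrial genome accounted for 24.3% to 35.7% of them in DRG and for 5.39% to 6.88% in the cord. Levels are CPM, a gene's counts relative to the library total over tested genes, with TMM factors that correct for such differences in composition. CPM is not divided by transcript length, so a gene is compared between tissues and never with another gene's level. A floor of 3 counts per library corresponds to 0.136 to 0.176 CPM in DRG, against 0.0764 to 0.0888 CPM in the cord, and it covers counting error only. Markers matched the labels. The summed level of 6 spinal neuron genes was 4.75 to 9.04 CPM in DRG against 631 to 698 CPM in spinal cord. That of 9 sensory neuron genes was 3111 to 3524 CPM in DRG against 645 to 762 CPM in spinal cord. Most of the sensory sum came from sncga, at 2358 to 2685 CPM in DRG and 430 to 539 CPM in spinal cord. Of the 9 sensory genes, 8 were higher in DRG at the threshold given below, and avil did not pass. In bulk tissue, fewer cells of a type and less RNA per cell cannot be told apart.

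Most lipid synthesis genes that differed between the tissues were lower in DRG. At an adjusted p under 0.05 (edgeR's quasi-likelihood test over 16112 genes), 3 of the 42 tested genes (7.14%) were higher in DRG, against 27.8% of all tested genes. The other 24 that passed (57.1% of 42) were lower in DRG and higher in spinal cord, against 28.1% of all. Taken without direction, 27 of 42 (64.3%) passed, beside 55.9% of all tested genes. When a fold of at least 2 was also asked for, 1 gene was higher in DRG and 20 in spinal cord, where the shares over all tested genes were 19.2% and 19.8%. The DRG and spinal cord libraries did not overlap for 34 of the 42 genes (81%), against 65% of all genes. Fitted log2 fold changes of DRG over cord had a median of -1.01 over the 42 genes and -0.04 over all tested genes.

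The summed level of the 42 genes was 2176, 1962 and 2593 CPM in DRG replicates 1, 2 and 3, against 5411, 5746.0 and 5369 CPM in spinal cord. All DRG libraries lay below all spinal cord libraries, and the mean was 2.46 times as high in spinal cord. The scale of all fold changes rests on TMM. Scaled by library size only, all genes had a median of -0.99 and the lipid genes of -1.95. The lipid genes thus stood at -0.96 relative to all genes, where TMM gave -0.97. A change of scaling moves all log2 fold changes by nearly the same amount, so this difference could hardly have come out otherwise. With library sizes alone 15.5% of all calls were higher in DRG, against 49.7% with TMM. Among the lipid genes 0 of 38 calls were then higher in DRG, against 3 of 27. All 24 genes higher in spinal cord kept that direction and call in each of the 15 alternative fits.

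**Figure D1:**
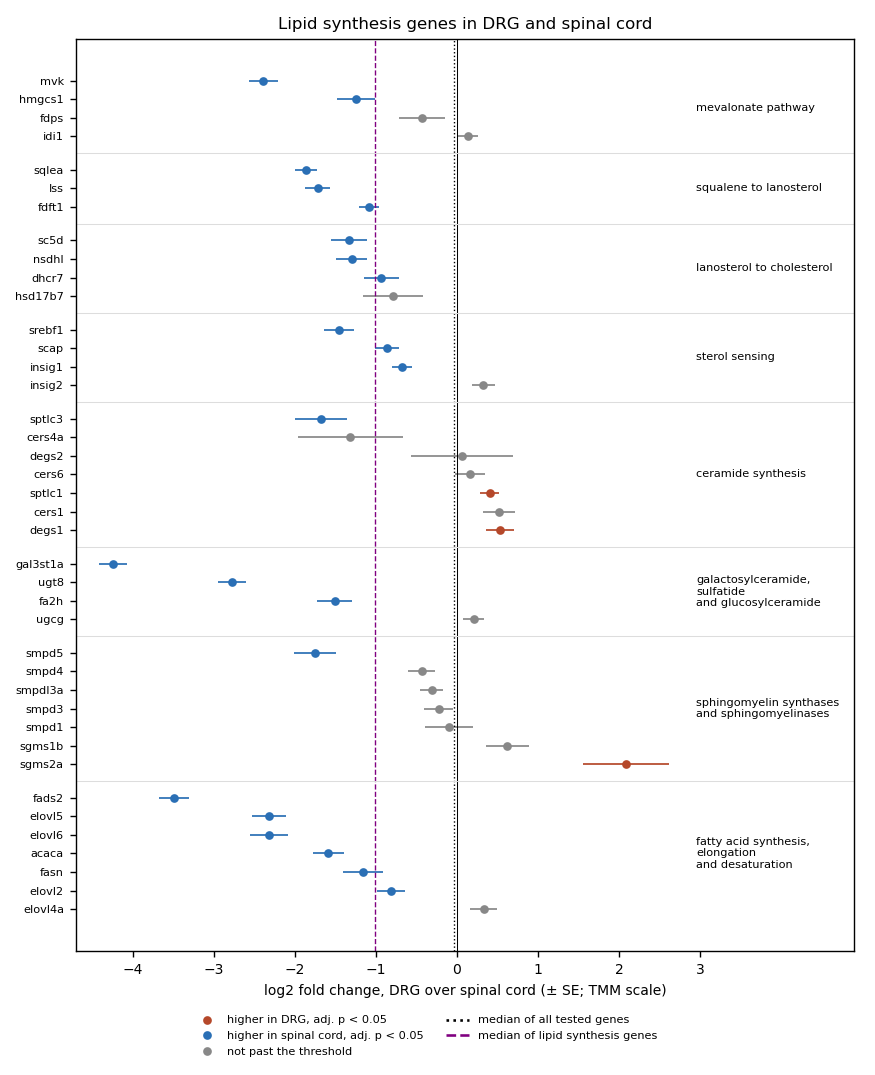
Log2 fold change (x axis, DRG over spinal cord, TMM scale) with its standard error for 40 of the 42 tested lipid synthesis genes (y axis), grouped by role. Red points were higher in DRG and blue points higher in spinal cord at an adjusted p under 0.05, and grey points did not pass; the dashed line is the median of the 42 genes (-1.01) and the dotted line that of all tested genes (-0.04).

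The first steps, from acetyl-CoA derivatives to farnesyl diphosphate, were covered by 5 genes. Of these, 3 (60%) were lower in DRG, 0 were higher and 2 did not pass (median log2 fold change -1.24). Counts in each role group are to be set beside the shares over all tested genes, 28.1% lower in DRG and 27.8% higher. For mvk, the kinase that phosphorylates mevalonate, levels were 32.5, 24.4 and 31.4 CPM in DRG replicates 1, 2 and 3, against 162, 130.0 and 171 CPM in spinal cord. The libraries of the 2 tissues were far apart, and the log2 fold change, DRG over cord as in all values given here, was -2.39 ± 0.18 SE (adjusted p = 2.61e-05). For hmgcs1, the HMG-CoA synthase gene, levels were 131, 108 and 197 CPM in DRG, against 307, 399 and 327 CPM in spinal cord. DRG replicate 3 was the highest of its tissue, still below every cord library (-1.24 ± 0.24 SE, adjusted p = 0.00261).

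The 2 genes of this group that did not pass were idi1 and fdps. The isomerase gene idi1, which interconverts the isoprene building blocks, had 127, 143 and 124 CPM in DRG, against 115, 122 and 123 CPM in spinal cord. All 3 DRG libraries were slightly above the cord libraries (0.13 ± 0.13 SE, adjusted p = 0.404), and the sign turned with library sizes alone. For fdps, farnesyl diphosphate synthase, levels were 40.3, 20.3 and 30.3 CPM in DRG, against 53.9, 35.2 and 33.3 CPM in spinal cord. These ranges overlapped, with replicate 1 the highest in both tissues (-0.43 ± 0.28 SE, adjusted p = 0.223).

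All 3 genes from squalene to lanosterol were lower in DRG, against 28.1% of all tested genes. The squalene epoxidase gene sqlea, a second control point of the pathway, had 92.2, 85.4 and 101 CPM in DRG, against 328, 335 and 353 CPM in spinal cord. Levels were tight within each tissue, and the log2 fold change was -1.86 ± 0.14 SE (adjusted p = 2.38e-05). For lss, the cyclase that makes lanosterol, the values were 38.9, 39.2 and 50.6 CPM in DRG, against 133, 149 and 142 CPM in spinal cord. Every cord library was above every DRG library (-1.72 ± 0.15 SE, adjusted p = 5.88e-05). The squalene synthase gene fdft1, the first enzyme committed to sterols, averaged 41.3 ± 3.37 CPM over 3 DRG libraries, against 87.4 ± 1.47 CPM over 3 cord libraries (SD; -1.08 ± 0.13 SE, adjusted p = 0.000207). Together the 3 genes had a median of -1.72.

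From lanosterol to cholesterol, 4 of 5 genes (80%) were lower in DRG, against 28.1% of all tested genes, and 0 were higher (median -1.30). The sterol desaturase gene sc5d had 16.5, 19.3 and 26.4 CPM in DRG, against 44.7, 65.2 and 46.7 CPM in spinal cord. Its ranges did not overlap (-1.33 ± 0.22 SE, adjusted p = 0.00143). For nsdhl, which takes part in removing the methyl groups of lanosterol, the means were 36.8 ± 5.14 CPM over 3 DRG libraries, against 90.6 ± 17.8 CPM over 3 cord libraries (SD; -1.30 ± 0.19 SE, adjusted p = 0.000675). The reference places sc5d and nsdhl over other genes (gkup and cetn2), so their counts are uncertain. The gene dhcr7, whose enzyme converts 7-dehydrocholesterol to cholesterol, averaged 32.4 ± 7.60 CPM over 3 DRG libraries, against 61.9 ± 12.4 CPM over 3 cord libraries (SD; -0.93 ± 0.22 SE, adjusted p = 0.00721). The ketoreductase gene hsd17b7 did not pass. It had 30.2, 14.3 and 37.8 CPM in DRG, against 54.7, 57.4 and 30.0 CPM in spinal cord, and spinal cord replicate 3 lay within the DRG range (-0.79 ± 0.37 SE, adjusted p = 0.105). Without DRG replicate 3 the adjusted p of hsd17b7 was 0.0441, and over all its alternatives 0.00654 to 0.261. Taken as 1 pathway, the 13 cholesterol enzymes had 10 genes (76.9%) lower in DRG, against 28.1% of all tested genes, 0 higher and 3 not passing. Their summed level was 836, 702 and 948 CPM in DRG against 2215, 2382 and 2107 CPM in spinal cord.

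**Figure D2:**
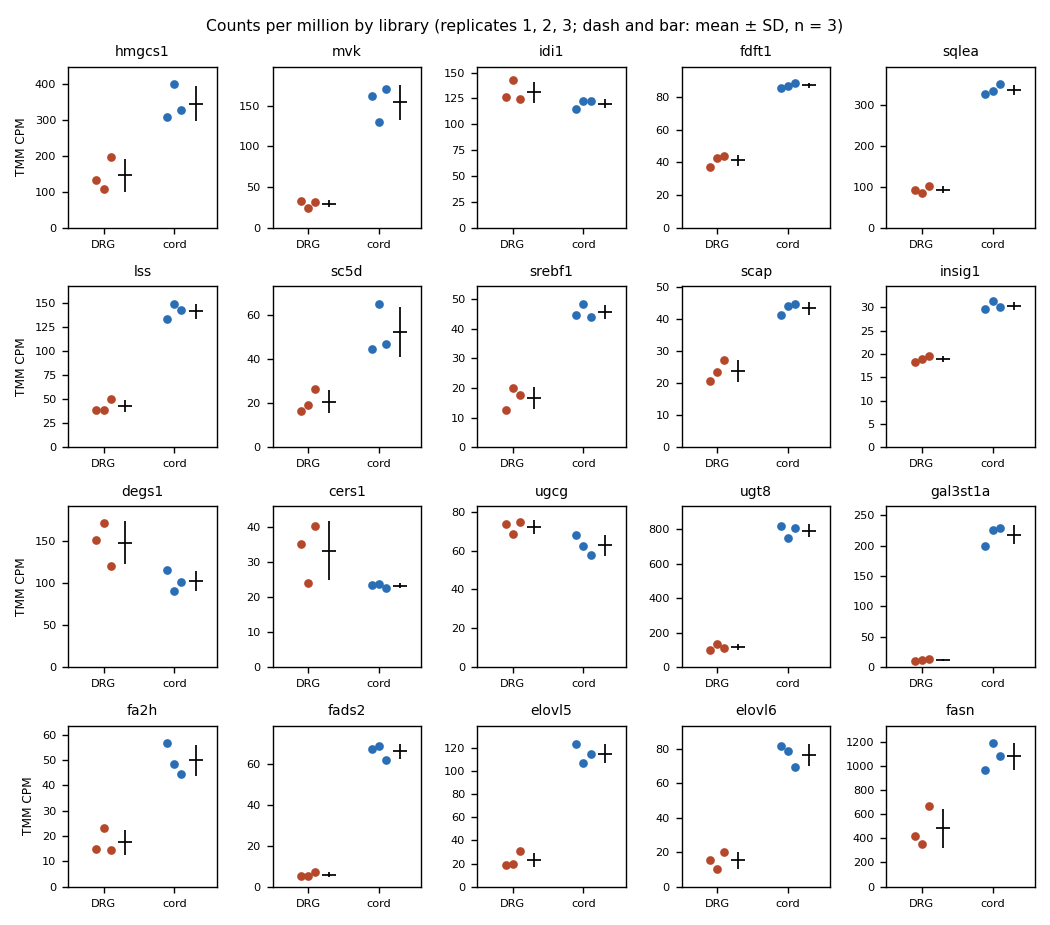
TMM-scaled CPM (y axis, each panel from 0 on its own scale) of 20 lipid synthesis genes in each library, with DRG (red) left of spinal cord (blue); the dash and bar give the mean ± SD over 3 libraries. The tissues were clearly separate for mvk, sqlea, ugt8, gal3st1a and fads2, while idi1 and ugcg differed little.

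Of 4 regulators, 3 (75%) were lower in DRG, against 28.1% of all tested genes, and insig2 did not pass (median -0.77). The gene srebf1, which encodes the SREBP-1 transcription factor of lipid synthesis, had 12.6, 19.8 and 17.5 CPM in DRG, against 44.7, 48.5 and 43.9 CPM in spinal cord. The lowest cord library was more than double the highest DRG library (-1.46 ± 0.18 SE, adjusted p = 0.000309). For scap, the escort protein of SREBPs, levels were 20.6, 23.6 and 27.3 CPM in DRG, against 41.3, 44.2 and 44.9 CPM in spinal cord. The separation was smaller but complete (-0.86 ± 0.15 SE, adjusted p = 0.00142). Of the genes of INSIG proteins, which hold SCAP back, 1 passed. For insig1 the values were 18.2, 18.9 and 19.5 CPM in DRG, against 29.6, 31.3 and 30.1 CPM in spinal cord (-0.68 ± 0.12 SE, adjusted p = 0.00203). For insig2 they were 21.2, 20.6 and 18.1 CPM in DRG, against 15.1, 15.6 and 17.1 CPM in spinal cord, with all DRG libraries above all cord libraries on the TMM scale and no call (0.32 ± 0.14 SE, adjusted p = 0.0891).

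Of 7 tested genes of ceramide synthesis, 2 (28.6%) were higher in DRG, 1 (14.3%) was lower and 4 did not pass (median 0.16). Over all tested genes, 27.8% were higher in DRG and 28.1% lower. Scaled by library size only, 0 were higher in DRG, 5 were lower and the median was -0.77. With that scaling 67.5% of all tested genes passed, 15.5% of those calls were higher in DRG, and the all-gene median was -0.99. Summed levels were 253, 266 and 234 CPM in DRG, against 199.7, 175 and 184 CPM in spinal cord. The desaturase gene degs1, the last step to ceramide, had 151, 172 and 121 CPM in DRG, against 115, 91.1 and 102 CPM in spinal cord. The ranges did not overlap, although DRG replicate 3 came close to spinal cord replicate 1 (0.53 ± 0.17 SE, adjusted p = 0.0287). For sptlc1, the shared subunit of serine palmitoyltransferase, the first enzyme of all sphingolipid synthesis, levels were 50.4, 52.7 and 51.0 CPM in DRG, against 40.7, 38.3 and 37.3 CPM in spinal cord. The difference was small beside a very small spread (0.41 ± 0.12 SE, adjusted p = 0.0187). With the pool number as a block, neither passed (adjusted p = 0.052 for degs1 and 0.0507 for sptlc1), so that 1 of the 42 genes was then higher in DRG in place of 3. Neither passed without spinal cord replicate 2 (adjusted p = 0.119 and 0.0833) or without spinal cord replicate 3 (0.0943 and 0.093), and degs1 alone lost its call without DRG replicate 1 (0.0816) or DRG replicate 2 (0.0628). Over all alternatives the adjusted p was 0.00714 to 0.119 for degs1 and 0.000909 to 0.093 for sptlc1. With library sizes alone both were lower in DRG, at -0.44 for degs1 and -0.55 for sptlc1.

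The alternative subunit gene sptlc3 went the other way, at 1.77, 1.64 and 2.85 CPM in DRG, against 5.62, 7.79 and 6.76 CPM in spinal cord. Levels were low in both tissues but separate (-1.68 ± 0.32 SE, adjusted p = 0.00262; 28 to 63 counts in DRG and 221 to 264 in spinal cord). The ceramide synthase genes did not pass. The gene cers1, whose enzyme attaches stearoyl chains, had 35.3, 23.9 and 40.5 CPM in DRG, against 23.4, 23.9 and 22.6 CPM in spinal cord. DRG replicate 2 was level with the cord libraries and the other two were above them (0.51 ± 0.20 SE, adjusted p = 0.0546). The call depended on the method, with an adjusted p of 0.0309 in DESeq2, 0.0443 with DESeq2 size factors and 0.00355 without DRG replicate 2, within 0.00355 to 0.189 over all alternatives. For cers6, which prefers palmitoyl chains, levels were 13.4, 11.7 and 17.1 CPM in DRG, against 13.3, 12.5 and 12.1 CPM in the cord, with overlap (0.16 ± 0.19 SE, adjusted p = 0.498). The paralog cers4a was near the count floor, at 5, 6 and 2 counts in DRG, against 25, 12 and 31 in spinal cord, or 0.286, 0.352 and 0.0904 CPM in DRG and 0.636, 0.355 and 0.794 CPM in the cord (-1.32 ± 0.65 SE, adjusted p = 0.12). The second desaturase gene degs2 had 0.858, 3.05 and 0.994 CPM in DRG, against 0.84, 1.36 and 2.48 CPM in spinal cord, which overlapped (0.06 ± 0.63 SE, adjusted p = 0.944).

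In the group of galactosylceramide, sulfatide and glucosylceramide genes, 3 of 4 (75%) were lower in DRG and ugcg did not pass (median -2.14). Over all tested genes, 28.1% were lower in DRG. This group held the largest difference of the 42 genes. For gal3st1a, the sulfotransferase that makes sulfatide, levels were 9.49, 12.2 and 12.8 CPM in DRG, against 199, 225 and 229.5 CPM in spinal cord. The log2 fold change was -4.24 ± 0.17 SE, or 18.9 times higher in spinal cord (adjusted p = 2.53e-06), and 2.79% of all tested genes had a log2 fold change at or below it. The gene ugt8, whose enzyme adds galactose to ceramide, had 101, 136 and 110.1 CPM in DRG, against 817, 747 and 809.9 CPM in spinal cord. The tissues were widely separate, and DRG replicate 2 was the highest of its tissue (-2.78 ± 0.17 SE, adjusted p = 1.06e-05). For fa2h, which hydroxylates the fatty acids of myelin galactolipids, the values were 15.0, 23.3 and 14.3 CPM in DRG, against 56.7, 48.6 and 44.4 CPM in spinal cord. DRG replicate 2 was again the highest in DRG, below every cord library (-1.51 ± 0.21 SE, adjusted p = 0.000582). The gene ugcg, whose enzyme adds glucose to ceramide instead, had 73.8, 68.3 and 74.9 CPM in DRG, against 68.2, 62.5 and 57.6 CPM in spinal cord. Its libraries nearly met and the difference did not pass (0.21 ± 0.13 SE, adjusted p = 0.203).

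Genes of sphingomyelin synthesis and breakdown were split, with 1 of 7 higher in DRG, 1 lower and 5 not passing (median -0.23). Each direction held 14.3% of the genes, against 27.8% higher in DRG and 28.1% lower over all tested genes. With library sizes alone, 0 were higher and 5 lower in DRG (median -1.16). Over all tested genes 67.5% then passed, 15.5% of those calls were higher in DRG, and the median was -0.99. The synthase gene sgms2a had 33, 23 and 18 counts in DRG, against 8, 12 and 15 in spinal cord, which correspond to 1.89, 1.35 and 0.814 CPM in DRG and 0.204, 0.355 and 0.384 CPM in the cord. The separation rested on few counts (2.08 ± 0.53 SE, adjusted p = 0.0106), and with library sizes alone the adjusted p was 0.0928 (0.00253 to 0.0928 over its alternatives). The related gene sgms1b had 8.29, 10.3 and 6.55 CPM in DRG, against 4.48, 5.12 and 6.71 CPM in spinal cord, with overlap between DRG replicate 3 and spinal cord replicate 3 (0.62 ± 0.27 SE, adjusted p = 0.0809). On the breakdown side, smpd5, a gene of the neutral sphingomyelinase family, had 2.52, 1.82 and 2.76 CPM in DRG, against 8.42, 7.84 and 7.71 CPM in spinal cord. It was low but separate in the 2 tissues (-1.75 ± 0.26 SE, adjusted p = 0.000768).

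The other sphingomyelinase genes did not pass. For smpd1, the acid sphingomyelinase of lysosomes, levels were 45.1, 32.0 and 67.9 CPM in DRG, against 43.5, 69.4 and 42.8 CPM in spinal cord. The ranges overlapped widely, as DRG replicate 3 and spinal cord replicate 2 were both high (-0.10 ± 0.30 SE, adjusted p = 0.796). The neutral sphingomyelinase gene smpd3 had 41.8, 28.8 and 43.6 CPM in DRG, against 44.6, 46.7 and 42.2 CPM in the cord, with DRG replicate 3 inside the cord range (-0.23 ± 0.18 SE, adjusted p = 0.305), and it overlaps another gene in the reference. For smpd4 the values were 12.6, 13.7 and 15.6 CPM in DRG, against 17.2, 18.3 and 21.3 CPM in the cord, with no overlap (-0.44 ± 0.16 SE, adjusted p = 0.0517). For the related phosphodiesterase gene smpdl3a they were 30.4, 33.2 and 39.6 CPM in DRG, against 43.0, 44.9 and 40.2 CPM in the cord, again with no overlap (-0.31 ± 0.14 SE, adjusted p = 0.0993). Without DRG replicate 3, smpd4, smpdl3a and sgms1b each passed (adjusted p = 0.0298, 0.020 and 0.0426), and over all alternatives the adjusted p was 0.000779 to 0.197 for smpd4, 0.00102 to 0.25 for smpdl3a and 0.0426 to 0.254 for sgms1b. Calls also depended on the method. Of the 7 sphingomyelin genes, 1 was lower in DRG in the main fit, and 2 with upper quartile factors or in DESeq2. With at least 10 counts in every library, 3 of 6 were. Of all tested genes, 55.9% passed in the main fit, and 56.3%, 59.7% and 58.8% in these 3 fits.

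Fatty acid genes were mostly lower in DRG: 6 of 7 (85.7%) passed in that direction, 0 in the other (median -1.59). Over all tested genes, 28.1% were lower in DRG and 27.8% higher. The desaturase gene fads2, which acts in making long polyunsaturated fatty acids, had 5.09, 5.16 and 7.28 CPM in DRG, against 67.5, 68.8 and 62.1 CPM in spinal cord. It was 11.3 times higher in spinal cord (-3.49 ± 0.18 SE, adjusted p = 5.41e-06). The elongase gene elovl5 of the same route had 19.1, 19.6 and 30.5 CPM in DRG, against 124, 107 and 115 CPM in spinal cord. DRG replicate 3 was the highest in DRG and far below the cord (-2.32 ± 0.21 SE, adjusted p = 6.27e-05). For elovl6, which elongates palmitate, the means were 15.3 ± 4.76 CPM over 3 DRG libraries, against 76.4 ± 6.41 CPM over 3 cord libraries (SD; -2.32 ± 0.23 SE, adjusted p = 0.000106). The carboxylase gene acaca, the entry to fatty acid synthesis, averaged 63.5 ± 15.1 CPM over 3 DRG libraries, against 191 ± 4.87 CPM over 3 cord libraries (SD; -1.59 ± 0.19 SE, adjusted p = 0.000244). For fasn, fatty acid synthase, levels were 420.3, 355 and 668 CPM in DRG, against 968, 1189 and 1077 CPM in spinal cord. DRG replicate 3 stood above the other DRG libraries without reaching the cord (-1.16 ± 0.25 SE, adjusted p = 0.00463).

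Changes of the elongase genes were unequal. For elovl2, which acts on longer polyunsaturated chains than elovl5, the difference was smaller, at 29.5, 32.4 and 21.0 CPM in DRG against 48.5, 48.7 and 48.3 CPM in spinal cord (-0.81 ± 0.17 SE, adjusted p = 0.00479). The gene elovl4a, whose enzyme makes very long chains, had 115, 81.2 and 117 CPM in DRG, against 80.5, 85.8 and 83.2 CPM in spinal cord. DRG replicate 2 lay within the cord range and the other two above it, and the difference did not pass (0.33 ± 0.17 SE, adjusted p = 0.125), except without DRG replicate 2 (0.47, adjusted p = 0.00944; 0.00944 to 0.334 over its alternatives). Scaling by library size only put it lower in DRG (-0.61, adjusted p = 0.0413).

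Ratios of counts between 2 genes within 1 library do not depend on how libraries are scaled. The pairs were chosen after the values were seen and are given as a description. The ratio of ugt8 to ugcg counts, the galactose against the glucose branch, was 1.37, 1.99 and 1.47 in DRG, against 12.0, 12.0 and 14.1 in spinal cord. The ratio of gal3st1a to ugcg was 0.129, 0.179 and 0.171 in DRG, against 2.92, 3.60 and 3.99 in spinal cord. Both ratios were thus lower in every DRG library, with means 7.88 and 22.0 times as high in spinal cord. Within sterol synthesis, the ratio of mvk to idi1 was 0.257, 0.171 and 0.253 in DRG, against 1.41, 1.06 and 1.39 in spinal cord. For sqlea over idi1 the means were 0.714 ± 0.109 in DRG and 2.83 ± 0.0761 in the cord (SD, n = 3 each). These ratios restate the unequal fold changes of the same genes given above. Among fatty acid genes, elovl5 over elovl4a was 0.223 ± 0.0505 in DRG, against 1.39 ± 0.145 in the cord (SD, n = 3 each), and elovl6 over elovl4a was 0.144 ± 0.0236 in DRG, against 0.920 ± 0.0899 in the cord. For fads2 over elovl2 the ratio was 0.226 ± 0.104 in DRG, against 1.36 ± 0.0683 in the cord.

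**Figure D3:**
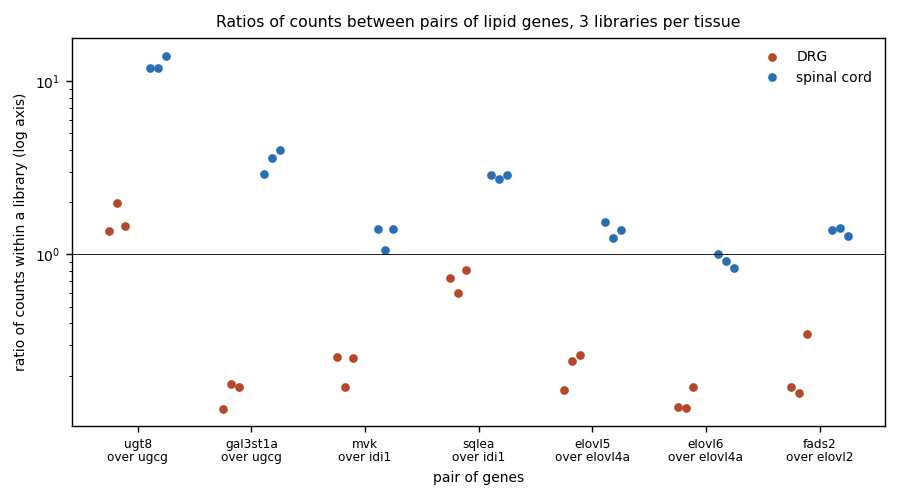
Ratio of the counts of 2 genes within a library (y axis, log scale) for 7 pairs (x axis), with 3 DRG libraries (red) left of 3 spinal cord libraries (blue) in each pair. The pairs were chosen after the values were seen. No DRG library reached a cord library in any of the pairs, and the ratio of ugt8 to ugcg was 1.37 to 1.99 in DRG and 12.0 to 14.1 in spinal cord.

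The lipid genes varied more among DRG libraries than among cord libraries, as did all tested genes. The median coefficient of variation of the 42 genes was 21.2% in DRG and 7.92% in spinal cord, and over all tested genes it was 24.3% in DRG and 12.7% in the cord. DRG replicate 3 was the highest of its tissue for 26 of the 42 genes (61.9%), against 37.2% of all tested genes, and it was so for 6 of 7 fatty acid genes. DRG replicate 2 was the lowest for 9 of the 13 cholesterol enzymes (69.2%), against 36.2% of all genes. Of the 4 genes of the galactosylceramide, sulfatide and glucosylceramide group, ugt8 and fa2h were highest in DRG replicate 2, and gal3st1a and ugcg in DRG replicate 3. The summed level of 9 oligodendrocyte and myelin genes was 3537, 6917 and 4284 CPM in DRG replicates 1, 2 and 3. Most of it came from mpz (1903, 3944 and 2086 CPM) and mbpa (1488, 2742 and 1993 CPM). Sums of the Schwann cell and satellite glia list (5021, 7540 and 3786 CPM) and the astroglial list (1863, 3061 and 1115 CPM) were likewise highest in DRG replicate 2. Both lists hold fabp7b (1778, 2963 and 1039 CPM), so the 2 sums are not separate readings. In the Schwann cell and satellite glia list, s100b had 2333, 3516 and 1798 CPM. DRG replicate 3 also had the lowest mitochondrial share, 24.3% against 33.7% and 35.7% in replicates 1 and 2, and the lowest sum of 6 connective tissue genes, 1486 CPM against 2480 and 3613 CPM. Their part in the order of the DRG libraries was not tested. In spinal cord, replicate 2 was the highest for 7 of 13 cholesterol enzymes (53.8%), against 31.9% of all genes.

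**Figure D4:**
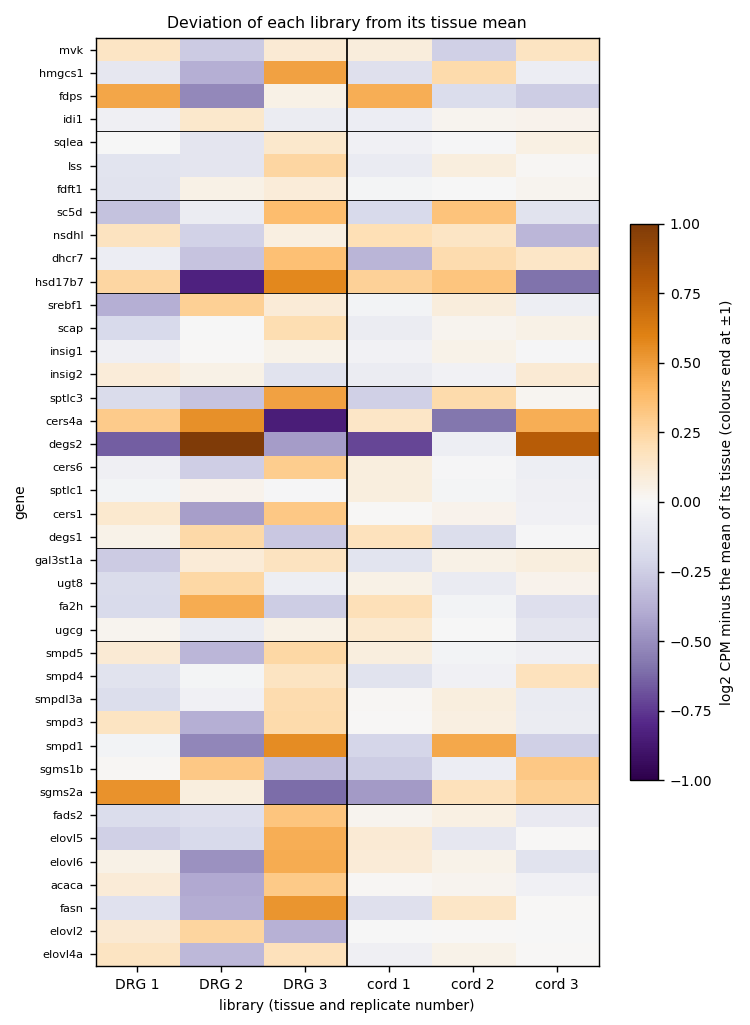
Deviation of each library (x axis) from the mean log2 CPM of its tissue for 40 of the 42 genes (y axis, in the order of the roles), with orange above and purple below the mean. Over all 42, DRG replicate 3 was the highest DRG library for 26 genes and DRG replicate 2 the lowest for 20, and deviations were smaller within spinal cord.

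Other genes of the same pathways, from lists of genes outside the rule, did not share 1 direction, and the directions are those of the TMM scale. Counts in each list on the TMM scale are to be set beside the shares over all tested genes, 27.8% higher in DRG and 28.1% lower. Those with library sizes alone, here and for the lists below, have another background. With that scaling 67.5% of all tested genes passed, and 15.5% of those calls were higher in DRG. The median of all tested genes was then -0.99. In the list of other sterol and isoprenoid genes, 3 of 11 were higher in DRG and 0 were lower (median 0.23), while library sizes alone gave 0 and 8 (median -0.72). They included acat2, a thiolase that makes acetoacetyl-CoA, at 137 ± 27.2 CPM in DRG, against 75.2 ± 12.3 CPM in the cord, and pdss1, which builds the ubiquinone side chain, at 28.5 ± 3.22 CPM in DRG, against 16.3 ± 1.17 CPM in the cord (SD, n = 3 each; log2 fold changes 0.87 and 0.80, adjusted p = 0.006 and 0.00214). Neither passed with library sizes alone, and both changed sign. Of 9 cholesterol transport genes, 1 was higher in DRG and 4 were lower (median -1.32), and library sizes alone gave 1 and 8. The largest difference was that of pltp, a phospholipid transfer protein of lipoproteins, at 66.2 ± 18.8 CPM in DRG, against 455 ± 37.4 CPM in the cord (SD, n = 3 each; -2.78 ± 0.22 SE, adjusted p = 3.88e-05). The lipoprotein receptor gene vldlr was also lower in DRG (-2.18 ± 0.18 SE, adjusted p = 3.85e-05). In the opposite direction, abcg4a, a sterol efflux transporter, had 273 ± 72.6 CPM in DRG, against 74.6 ± 6.56 CPM in the cord (SD, n = 3 each; 1.87 ± 0.21 SE, adjusted p = 0.000194).

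Other sphingolipid synthesis genes were split, with 2 of 11 (18.2%) higher in DRG and 3 (27.3%) lower (median 0.01). Both shares were below those of all tested genes (27.8% and 28.1%). With library sizes alone 1 was higher and 7 were lower (median -0.96). Lower levels in DRG were found for cerk, ceramide kinase, and st3gal2, a ganglioside sialyltransferase (log2 fold changes -0.97 and -0.78, adjusted p = 0.00548 and 0.00374). Of 12 sphingolipid breakdown genes, 4 were higher in DRG and 2 were lower (median 0.11), and with library sizes alone 1 was higher and 7 were lower (median -0.84). The gene psap, whose product is cut into activators of lysosomal sphingolipid breakdown, had 1036 ± 70.7 CPM in DRG, against 621 ± 53.5 CPM in the cord (SD, n = 3 each; 0.74 ± 0.15 SE, adjusted p = 0.00359). The glucosylceramidase gene gba2 was also higher in DRG (1.20 ± 0.17 SE, adjusted p = 0.000637), and the alkaline ceramidase gene acer3 was lower (-0.81 ± 0.15 SE, adjusted p = 0.00236). With library sizes alone, the calls of psap and gba2 were lost and psap changed sign.

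Of 18 other fatty acid genes, 4 were higher in DRG and 3 were lower (median 0.02), and with library sizes alone 1 was higher and 10 were lower (median -0.91). The fatty acid transport protein gene slc27a4 and the acyl-CoA synthetase gene acsl1a were higher in DRG (1.36 ± 0.15 SE and 1.05 ± 0.18 SE, adjusted p = 0.000185 and 0.00145), and neither passed with library sizes alone. The citrate lyase gene aclya, which supplies acetyl-CoA in the cytosol, had 302 ± 80.4 CPM in DRG, against 530.4 ± 40.7 CPM in the cord (SD, n = 3 each; -0.81 ± 0.21 SE, adjusted p = 0.0116), and hacd2, a dehydratase of the elongation cycle, was likewise lower in DRG (-0.73 ± 0.13 SE, adjusted p = 0.00157). The synthetase gene acsl5, named after its values were seen, had 2.34, 1.47 and 0.588 CPM in DRG and at most 3 counts in each cord library. Its mean in DRG was 18.2 times the mean floor of 3 counts per cord library, and the DRG libraries were uneven.

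**Figure D5:**
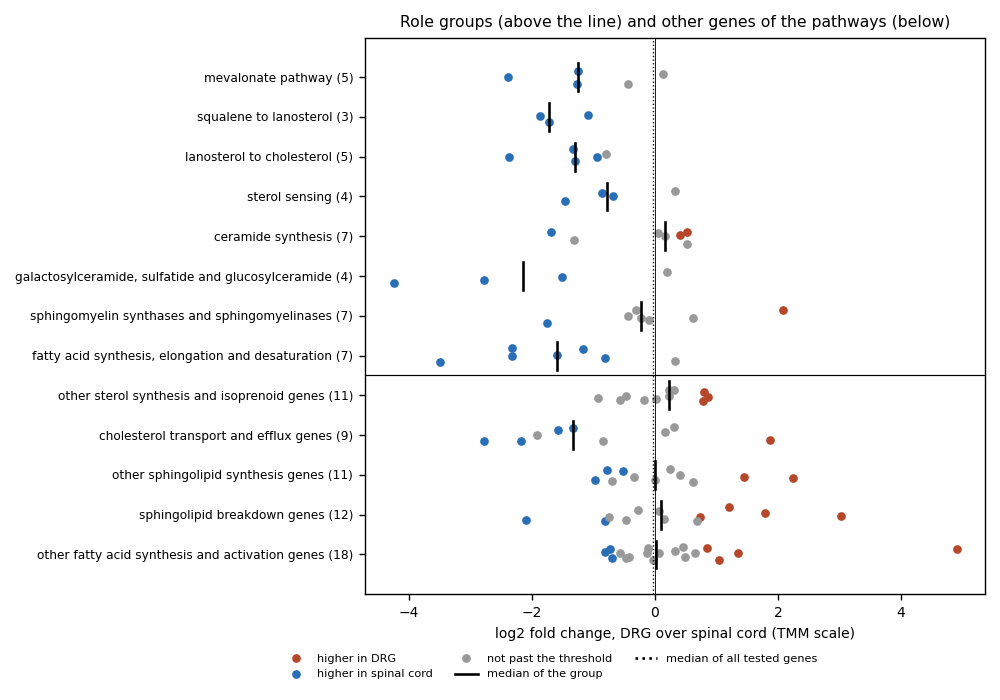
Log2 fold change (x axis, DRG over spinal cord) of each tested gene in the 8 role groups of lipid synthesis genes (above the line) and in 5 lists of other genes of these pathways (below), with the number of genes in brackets, the median of each group as a bar and the median of all genes dotted. Medians lay at or below -0.77 for the sterol synthesis groups, sterol sensing, the galactosylceramide, sulfatide and glucosylceramide group, and fatty acid synthesis. They lay between -0.23 and 0.23 for the other groups except cholesterol transport at -1.32. The point farthest right, acsl5, had at most 3 counts in each cord library, so its fitted value is no measure of size.

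Markers of other cell types also differed between the tissues. At the same threshold, 27.8% of all tested genes were higher in DRG and 28.1% lower. Of 9 tested genes of the oligodendrocyte and myelin list, 8 were lower in DRG and cnp was higher, and their sum was 3537 to 6917 CPM in DRG, against 35627 to 44387 CPM in the cord. Among them, myrf, a transcription factor of oligodendrocytes, had 1.64 ± 0.46 CPM in DRG, against 155 ± 5.31 CPM in the cord, and olig2 had 0.447 ± 0.297 CPM in DRG, against 51.2 ± 5.90 CPM in the cord (SD, n = 3 each). The gene mpz, which encodes a major myelin protein in mammalian nerves, had 2644 ± 1129 CPM in DRG, against 31499 ± 4454 CPM in the cord (SD, n = 3 each). Of 8 astroglial genes, 7 were lower in DRG, with a sum of 1115 to 3061 CPM in DRG, against 4618 to 4893 CPM in the cord. Most of the DRG sum came from fabp7b, the gene that did not pass. It had 1778, 2963 and 1039 CPM in DRG, against 2190, 1707 and 1913 CPM in the cord. The same row also counts in the Schwann cell and satellite glia list. Of 6 Schwann cell and satellite glia genes, 4 were higher in DRG and 1 was lower (3786 to 7540.5 CPM in DRG, against 2119 to 2769.7 CPM in the cord). Connective tissue genes were higher in DRG for 5 of 6 (1486 to 3613 CPM in DRG, against 134 to 168 CPM in the cord). Blood and macrophage genes were higher in DRG for 3 of 4, with sums of 72.1 to 149 CPM in DRG, against 19.3 to 21.2 CPM in the cord. Of 6 endothelial genes, 1 was higher in DRG and 3 were lower, with sums of 40.4 to 65.7 CPM in DRG, against 102 to 129 CPM in the cord. Of 8 fat cell symbols, the 2 with a tested row, pparg and cebpa, did not pass and summed to 1.76 to 2.69 CPM in DRG, against 3.10 to 3.29 CPM in the cord. The part of these cell types in the differences between lipid genes was not tested.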

How the data were processed

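Bulk RNA-seq was analysed in 6 libraries, 3 of DRG and 3 of spinal cord. The authors deposited raw whole-number counts per gene. Per the labels' protocols, libraries were stranded and made after polyA selection, with paired-end reads. Per the submitters' processing notes, Trimmomatic, HISAT2 2.2.0, SAMtools, featureCounts and edgeR 4.4 were used; their settings, the strand used in counting, the build and the annotation are not given in the sources used here. Where reads could be split between near-identical paralogs or overlapping genes, counts are uncertain. In the RefSeq gene table of the assembly Leri_hhj_1, used only for names and neighbours, 3 of 42 placed lipid genes (nsdhl, smpd3 and sc5d) overlap another gene.

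The 24 rows that name no gene (1.02% to 2.04% of counts) were left out. Genes were filtered with filterByExpr, and 16112 of 22087 were tested with the quasi-likelihood functions glmQLFit and glmQLFTest of edgeR 4.0.16 in R 4.3.3. Libraries were scaled by TMM, tissue was the only term, and p-values were adjusted over all tested genes by Benjamini-Hochberg (threshold 0.05). The standard error is the size of the log2 fold change divided by the square root of F. The fits were tested on simulated counts with a spread shared by all genes and 200 genes changed. In the data, 9002 of 16112 genes passed and genes differed in spread, so the simulated rates need not hold there. Of simulated log2 fold changes of size 1, 24% were called in the right direction, and of those of size 2, 93.9%. Of the simulated calls, 3.33% were false. A gene that did not pass may still differ. The labels list the pool number as a batch shared by both tissues, so the numbers pair the libraries; deviations from the tissue mean correlated across 16112 genes at 0.48, -0.24 and -0.18 for pools 815, 816 and 818. Each pool has 1 library of each tissue, so no pool was tested on its own, and pools entered as a block in an alternative fit. Alternatives were other scalings, other filters, DESeq2 1.42.0, limma 3.58.1 voom, the replicate block, each library left out and the mitochondrial rows left out. Figures were drawn with matplotlib 3.10.9.

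A few lipid genes enter the counts, sums and medians but are not reported by name here. The members, the lists and the rule for named genes were chosen with earlier results of these data known. Values per library are given for the 2 members with the largest called change and the member with the highest CPM in each role group, and for members that did not pass, apart from those not reported. They are also given for insig1, fa2h and elovl2, and other members are given by means. From each list outside the rule, at most 2 called genes per direction with at least 10 CPM in the higher tissue are named. List symbols with no row were also looked for with a or b added.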

Additional observations from a re-analysis of the deposited data

How the results depend on the processing

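The number of genes that differ was 9002 and stayed within 1.5 times of that in every alternative (7958 to 10882, and 7416 to 9534 when each library was left out). Lipid synthesis genes past the threshold numbered 27, 25 to 38 across alternatives and 25 to 31 with each library left out. Those higher in spinal cord numbered 24, 38 with library sizes alone, and 24 to 27 with each library left out. Those higher in DRG numbered 3, 0 with library sizes alone, 1 with the replicate block, and 1 to 4 with each library left out. Of all tested genes, 55.9% passed in the main fit, 67.5% with library sizes alone and 52.3% with the replicate block. With each library left out, 45% to 57.4% passed. Calls higher in DRG made up 49.7% of all calls in the main fit and 15.5% with library sizes alone. The median log2 fold change of the lipid genes was -1.01, -1.95 with library sizes alone, and -1.12 to -0.96 with each library left out. The replicate block lowered the call count of all genes to 8425 and ended the calls of degs1 and sptlc1; it changed no other call among the lipid genes. With library sizes alone, which moved the median of all genes from -0.04 to -0.99, the sign turned for idi1 (-0.83), insig2 (-0.64), degs2 (-0.95), cers6 (-0.77), sptlc1 (-0.55), cers1 (-0.41), degs1 (-0.44), ugcg (-0.74), sgms1b (-0.36) and elovl4a (-0.61), and outside the set for acat2 (-0.081), pdss1 (-0.14) and psap (-0.22). The sign of degs2, at 0.06, also turned with at least 10 counts in every library (-0.026), voom (-0.057) and the replicate block (-0.031), and its value ranged over -0.76 to 0.56 with each library left out. With each library left out, cers6 ranged over -0.017 to 0.27, turning without DRG replicate 3, and smpd1 over -0.44 to 0.16, turning without DRG replicate 2 or spinal cord replicate 2. The cause of these turns was not tested beyond the shift of the scale. With library sizes alone, 7 further lipid genes of unchanged sign gained a call and sgms2a lost its call. Requiring 10 counts in every library left 40 of the 42 genes, without sgms2a and cers4a. The few counts of sgms2a, cers4a and degs2 limit their precision.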
